A study of Arabidopsis thaliana with 8 samples.

Results

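The 33 probe sets described here gave a low signal in 1 Arabidopsis accession, Cal-0, and a higher one in the other, Col-4. They were chosen by these signals: a MAS5 signal of at most 40 on all 4 Cal-0 arrays and of at least 60 on all 4 Col-4 arrays, out of 22746 probe sets without controls. A probe set is the group of short probes that reads 1 transcript, and MAS5 is the array maker's summary of it on a linear scale. Of the 38 probe sets that met both limits, 5 belonged to the 8 genes that the rule leaves out by name. With no detection call or background estimate used here, a low signal is not shown to be an absent transcript, and 14 of the 33 kept a Cal-0 mean above 20. Because the signals chose the members, the difference between the accessions is given below as a description and is not tested.

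Cal-0 carries the label calcicole, a plant of lime-rich soil, and Col-4 the label non-calcicole; each was represented by 4 arrays. The RNA of both came from whole plants at developmental stage 3.90, grown in a growth room at 23 degrees Celsius in sand with 0.5 times Long Ashton nutrients. All plants, Col-4 included, received 1 mM CaCl2 after 48 h of stratification at 4 degrees Celsius, so no plant without this calcium supply was measured. No allele, transgene or further treatment is given for either accession, and the labels do not say whether the 4 replicates were separate plants, pools or cultures. P-values therefore cover only the spread among these arrays, part or all of which may be technical.

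Natural accessions of Arabidopsis are inbred lines whose genomes differ by lost, truncated and silenced genes as well as by single bases. Columbia lines, to which Col-4 belongs, supplied the sequence from which the probes of the ATH1 array were designed. A transcript that is absent and a transcript that the probes bind poorly both give a low signal, and these data do not tell them apart. In whole plants, fewer cells of a type and less RNA per cell cannot be told apart either.

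All 8 arrays had been scaled to the same trimmed mean, and their medians lay between 44.0 and 50.1 signal units. The number of arrays, and not a read depth, limits the precision. RNA quality was read from the control probe sets of GAPDH and actin, as their signal at the 3′ end over that at the 5′ end, averaged on the log2 scale. It was 1.70, 1.52, 1.88 and 1.96 on Cal-0 replicates 1 to 4 and 0.955, 0.927, 1.66 and 2.39 on Col-4 replicates 1 to 4. The accessions were apart on replicates 1 and 2 and overlapped on replicates 3 and 4. The leaf marker list had 1 of 6 genes named on the array, AT5G01530 of the light-harvesting complex, at 4771 to 7090 in Cal-0 and 5515 to 9487 in Col-4. The root list had 2 of 6 named. AT3G09260, a beta-glucosidase of root endoplasmic reticulum bodies, was at 395 to 1106 in Cal-0 and 329 to 887 in Col-4. AT4G30170 was at 111 to 132 in Cal-0 and 45.9 to 86.8 in Col-4, so its signals did not overlap between the accessions. The part of RNA quality or tissue content in the accession differences was not tested. Signals of both leaf and root were thus present, as a whole-plant label requires. The flower and seed lists had no named probe set and were not analysed here.

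A signal of 40 is a common value on these arrays: between 43.5% and 47.8% of all probe sets were at or below it on any 1 array. In Cal-0, 8697 probe sets (38.2%) stayed at or below 40 on all 4 arrays, and in Col-4 8590 (37.8%) did. At the other end, 8130 probe sets were at 60 or more on every Col-4 array, and the 38 that met the rule make up 0.467% of them. The mirrored rule, low in Col-4 and present in Cal-0, found 10 probe sets, or 0.120% of the 8328 that were at 60 or more on every Cal-0 array. The limits and the place of the members among all probe sets are drawn in the scatter plot of highest Cal-0 against lowest Col-4 signal.

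**Figure D1:**
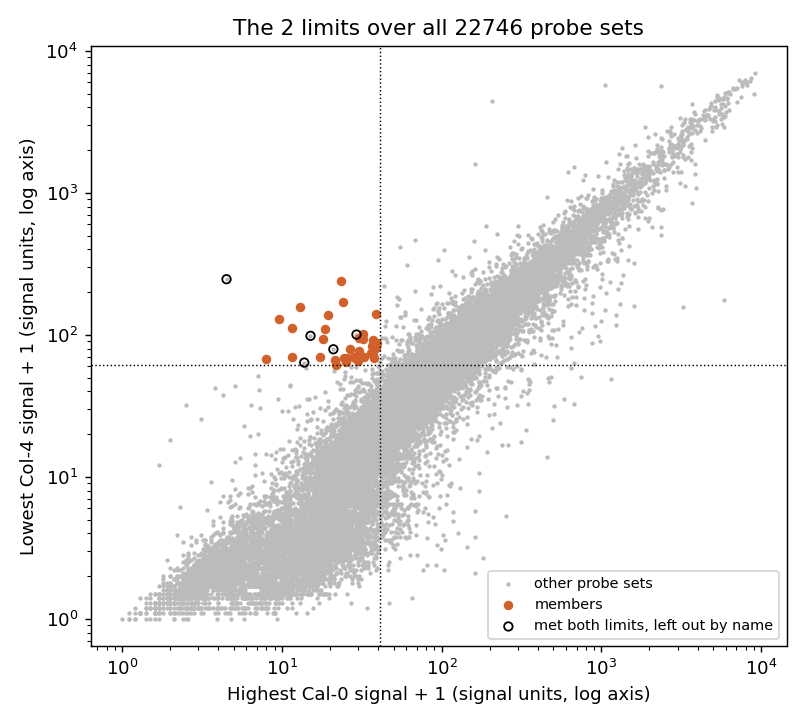
Each point is 1 of the 22746 probe sets, with its highest signal over the 4 Cal-0 arrays on the x axis and its lowest over the 4 Col-4 arrays on the y axis (signal units + 1, both axes logarithmic). Dotted lines mark the limits of 40 and 60; the 33 members (filled) lie in the upper left corner with the 5 probe sets left out by name (open circles).

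Among the members, mean Cal-0 signals ran from 4.93 to 32.7 with a median of 17.9, and mean Col-4 signals from 70.9 to 340.0 with a median of 101. Ranked among all probe sets, these means sat at percentiles 10.7 to 40.2 in Cal-0 and 61.8 to 92.1 in Col-4. Col-4 levels were thus moderate: 16 members averaged under 100, 13 between 100 and 200, and 4 more than that. In Cal-0, 5 members averaged at most 10, 14 lay between 10 and 20, and 14 above 20. The ratio of the Col-4 mean to the Cal-0 mean had a median of 5.97 and reached at least 10 in 10 members. These ratios are taken on MAS5 signals, whose low end carries no background estimate here, so the largest are the least certain.

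A stricter view compares the lowest Col-4 array with the highest Cal-0 array. By that measure 10 members were at least 5-fold apart, and 2 were less than 2-fold apart: AT1G71020 at 1.96 and 248923_at at 1.85. All 33 passed the filter on low values (a mean signal of at least 25), which the rule itself guarantees. By the rule the Cal-0 arrays lay wholly below the Col-4 arrays in all 33, as they did in 5.43% of the 15165 probe sets tested. Nothing is read from that count, since the same signals chose the members.

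**Figure D2:**
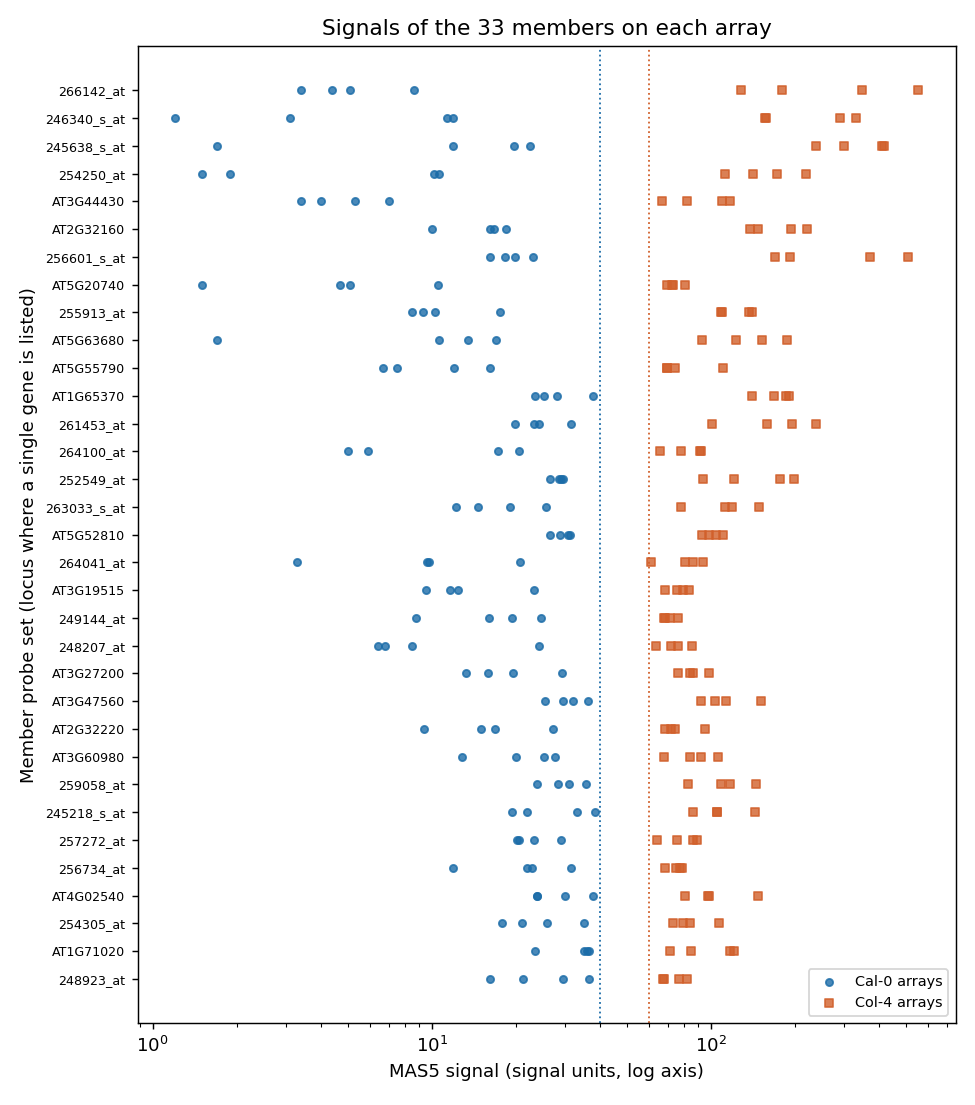
MAS5 signal (x axis, logarithmic, signal units) of each member on each of the 4 Cal-0 arrays (circles) and 4 Col-4 arrays (squares), ordered from the widest to the narrowest gap between the accessions. The gap narrows from 14.8-fold for 266142_at to 1.85-fold for 248923_at; the dotted lines at 40 and 60 are the limits of the rule.

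The gene table tied 14 of the 33 probe sets to a single gene, 4 to several genes, and did not list the other 15, which are called by their probe set IDs. Grouped by what their products are known for, the 14 genes comprised 4 metabolic enzymes, 2 proteins of the secretory pathway or cell wall, 3 proteins with domains for protein turnover or interaction and 2 that act with RNA or in the ribosome. For the remaining 3 no role is given.

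Among the enzymes, AT2G32160 encodes a methyltransferase of the family that takes its methyl group from S-adenosylmethionine. Its signal was 16.7, 18.5, 10 and 16.1 on Cal-0 replicates 1 to 4 and 137, 193, 148 and 220.3 on Col-4 replicates 1 to 4. Even the lowest Col-4 array was 7.42-fold above the highest Cal-0 array, and the means (15.3 ± 3.69 and 174 ± 38.9, SD, n = 4) had a ratio of 11.4.

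AT5G63680 encodes a pyruvate kinase, the enzyme of the last step of glycolysis. Cal-0 arrays read 17.0, 1.7, 13.5 and 10.6, and Col-4 arrays 187, 123, 152 and 92.5. Cal-0 replicate 2 was near 0 and the Col-4 arrays were widely spread, while the groups stayed 5.44-fold apart at their nearest arrays.

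AT5G52810 encodes a reductase in the synthesis of pipecolic acid, a signal of systemic acquired resistance. It changed little among the Cal-0 arrays, at 30.7, 26.5, 28.8 and 31.2, against 98.6, 92.4, 104 and 110.5 in Col-4. With 29.3 ± 2.13 and 101 ± 7.75 (SD, n = 4) the means differed 3.46-fold. AT3G47560, of the alpha/beta hydrolase superfamily of esterases and lipases, read 32.0, 36.2, 29.5 and 25.5 in Cal-0 and 113, 151, 91.7 and 103 in Col-4. Both genes had a Cal-0 mean near 30, where AT5G63680 averaged 10.7. Without a background estimate, such a signal is not shown to come from the transcript.

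Of the secretory and cell wall genes, AT5G20740 encodes a protein of the family that inhibits invertases and pectin methylesterases, which act on sucrose and on wall pectin. Cal-0 arrays read 4.7, 5.1, 1.5 and 10.5 and Col-4 arrays 80.4, 69.3, 73.2 and 72.4. The Col-4 values were among the most even of all members (73.8 ± 4.69, SD, n = 4), and the mean ratio of 13.5 rested on Cal-0 signals close to 0. AT3G27200 encodes a cupredoxin, a small copper-binding protein of the kind found at the plasma membrane and wall. It stood at 13.2, 29.3, 15.9 and 19.6 in Cal-0 and at 85.9, 98.3, 84.0 and 76.0 in Col-4, a mean ratio of 4.41. Cal-0 replicate 2 was the highest of its accession.

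The 3 genes with domains for turnover and interaction kept Cal-0 means of 28.6 to 32.7, near the upper limit of the rule. AT1G71020 encodes a U-box E3 ubiquitin ligase, which marks other proteins for degradation. Its values were 23.4, 36.4, 35.0 and 36.0 in Cal-0 and 120.4, 117, 71.3 and 84.7 in Col-4, a mean ratio of 3.00, the smallest of the named members. Cal-0 replicate 1 was low beside 3 closely placed arrays.

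The product of AT1G65370 has a TRAF-like domain, a module for binding other proteins. It read 28, 37.8, 25.2 and 23.4 in Cal-0 and 186, 169, 139.9 and 189 in Col-4. Its Col-4 mean was 171 ± 22.5 (SD, n = 4), with no array near the limit of 60, and the mean ratio was 5.97. AT4G02540, with cysteine- and histidine-rich C1 domains, which bind zinc, read 29.9, 37.8, 23.7 and 23.8 on the Cal-0 arrays and, on those of Col-4, 97.9, 97.4, 80.6 and 147 in Col-4. Replicate 4 stood above the other Col-4 arrays there.

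AT3G60980 belongs to the pentatricopeptide repeat family, whose members bind RNA in chloroplasts and mitochondria. Its signals were 20, 27.5, 25.2 and 12.8 in Cal-0 against 84.3, 67.6, 92.2 and 106 in Col-4. AT2G32220 encodes a protein of the large ribosomal subunit, of the L27e family, and read 16.8, 27.2, 15 and 9.4 against 68.5, 94.9, 71.9 and 74.5. In both genes the groups were about as far apart, with nearest arrays 2.46-fold and 2.52-fold from each other and mean ratios of 4.10 and 4.53.

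AT3G44430, for which no role is given, had the widest gap of the named members. Cal-0 arrays read 5.3, 7.0, 3.4 and 4.0 and Col-4 arrays 109, 117, 82.1 and 66.8. The mean ratio was 19.0, and the nearest arrays were 9.54-fold apart. AT5G55790 gave 7.5, 16.2, 6.7 and 12 on the Cal-0 arrays, and in Col-4 69.7, 69.3, 74.0 and 111 in Col-4, where replicate 4 stood apart from 3 close arrays.

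AT3G19515 is the named member for which the gene table holds a second probe set. The 8730 probe sets that the table does not list could not be searched for others. The member probe set, 258027_at, gave 23.3, 9.5, 12.4 and 11.6 in Cal-0 and 79.2, 68.2, 75.2 and 83.1 in Col-4. The other, 256565_at, gave 11.6, 9.4, 4.7 and 3.1 in Cal-0 and 2.4, 14.3, 15.4 and 3.0 in Col-4. These 2 probe sets of the same gene disagreed: by 256565_at the gene was near 0 in both accessions and the groups overlapped (7.20 ± 3.97 and 8.78 ± 7.03, SD, n = 4). The accession difference of AT3G19515 therefore rests on 1 of its 2 probe sets.

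The 4 probe sets with the widest gaps had no single gene in the table. For 266142_at, not listed there, Cal-0 arrays read 8.6, 3.4, 4.4 and 5.1 and Col-4 arrays 180.0, 128, 552 and 346, a mean ratio of 56.1. For 246340_s_at, tied to 2 genes, the values were 11.3, 11.9, 3.1 and 1.2 in Cal-0 and 158, 156, 288 and 331 in Col-4. In both, Col-4 replicates 3 and 4 stood above replicates 1 and 2.

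For 245638_s_at, tied to 3 genes, Cal-0 arrays read 1.7, 22.5, 11.9 and 19.7 and Col-4 arrays 416, 299, 237 and 408. For 254250_at, not listed, they read 10.2, 10.6, 1.5 and 1.9 against 112, 173, 142 and 219. Both kept their nearest arrays more than 10-fold apart, at 10.6 and 10.5. The suffix _s_at marks probes shared by several transcripts, so the Cal-0 signal there is 1 reading over all of them. Low transcripts and poor probe binding are not told apart there either.

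The 14 named members had a median Col-4 mean of 95.9 and a median ratio of 4.96; the 15 unlisted ones had 85.6 and 6.46, and the 4 tied to several genes 174 and 15.4. Of the unlisted ones, 255913_at, 256601_s_at, 266142_at and 254250_at were over 10-fold higher in Col-4 by their means. The remaining 11 lay between 2.85-fold and 7.39-fold.

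The limits cut through a continuous range of signals. Just inside the Cal-0 limit were 245218_s_at, with a highest Cal-0 signal of 38.4, and AT4G02540 and AT1G65370, both with 37.8. Just outside it were AT5G17650 with 40.3, AT4G02850 with 41.1 and AT1G69730 with 41.6, all of which met the Col-4 limit. On the Col-4 side 264041_at, 248207_at and 257272_at were just inside with lowest signals of 60.8, 63.5 and 64.1, and 257067_at, 245451_at and AT5G43740 just outside with 59.1, 58.4 and 58.4. The number of members moved accordingly, to 22 with a Cal-0 limit of 30, to 51 with 50, to 49 with a Col-4 limit of 50 and to 16 with 80.

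Whether low Cal-0 signal extended to the genes beside the members was examined for the 14 named genes, over 3 protein-coding genes on either side in the order of the RefSeq annotation. No other named member lay within that range, and the closest pair, AT2G32160 and AT2G32220, had 5 genes between them. Of the flanking genes, 33 had a tested probe set of their own, beside 12 of the 14 members. Their median accession difference (Cal-0 minus Col-4) was 0.01 on the log2(signal + 16) scale, close to the 0.03 of all 8300 tested probe sets with a single gene. Differences smaller than 0.5 were seen in 78.8% of the flanking genes and in 90.4% of all those probe sets. No flanking gene was tested as part of a group, and these shares are descriptions.

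In limma without a block, 4 of the 33 flanking genes (12.1%) were lower in Cal-0 and 1 (3.03%) was higher at an adjusted p under 0.05, where 2.75% of the 15165 tested probe sets were called lower and 1.54% higher. With the replicate number as a block these 5 calls were made again, with AT4G02530 beside AT4G02540 as a further lower gene (log2 difference -0.67, limma adjusted p = 0.016, and 0.0729 without the block); all tested probe sets then gave 4.95% lower and 3.61% higher. The difference between the flanking genes and all probe sets was not tested. The lowest, AT3G61010, lies 2 genes from AT3G60980. Its means were 21.2 ± 5.99 (Cal-0) and 70.1 ± 22.9 (Col-4; SD, n = 4), a log2 difference of -1.19 (limma adjusted p = 0.00443). AT2G32150, directly beside AT2G32160, was at 54.5 ± 8.64 and 107 ± 17.5 (log2 difference -0.80, limma adjusted p = 0.0115). On the other side of AT2G32160, AT2G32170, of the same methyltransferase family, was at 144 ± 21.9 and 186 ± 21.5 and did not pass (limma adjusted p = 0.292, and 0.141 with the replicate block). AT3G19520 beside AT3G19515 (log2 difference -0.64) and AT3G44450, 3 genes from AT3G44430 (-0.82), were the other lower genes. AT3G27210 beside AT3G27200 was higher in Cal-0, by 0.72. These flanking genes were named after their values were seen.

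**Figure D3:**
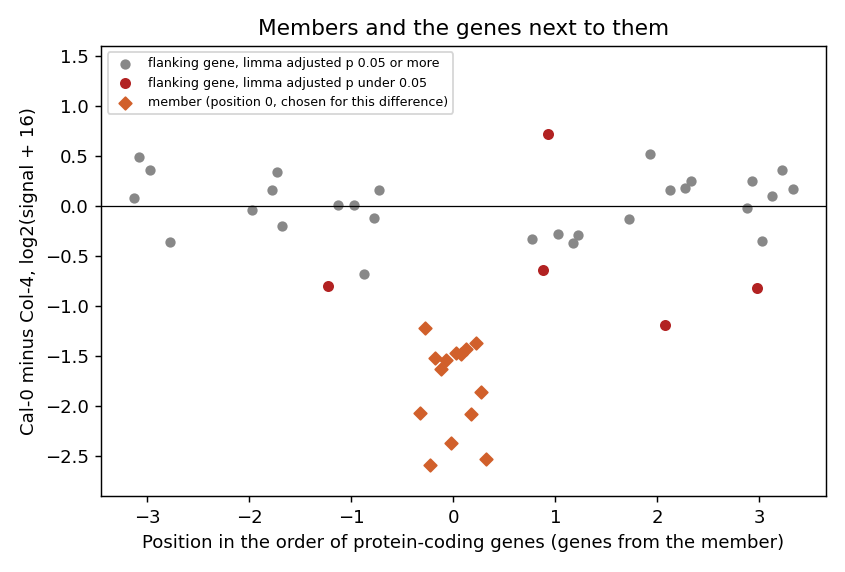
Accession difference (y axis, Cal-0 minus Col-4 on the log2(signal + 16) scale) of the 14 named members at position 0 and of tested genes up to 3 positions away in the order of protein-coding genes (x axis; points are shifted sideways by member to keep them apart). Members sit between -2.59 and -1.21, and the flanking genes between -1.19 and 0.72.

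The members also varied within Col-4. Over its 4 arrays their coefficient of variation had a median of 21.7%, against 19.4% over all tested probe sets. The median was 17.1% over the 6894 tested probe sets whose Col-4 mean lay in the members' range. Among the members it ran from 5.40% to 63.4%, a spread that the floor of 60 limits in members with low means. The rule set that floor on all Col-4 arrays alike and did not use the difference between the later and the earlier of them. Replicates 3 and 4 are arrays 7 and 8 in the titles, and replicates 1 and 2 are arrays 3 and 4. Both later Col-4 arrays were above both earlier ones in 8 of 33 members and below them in 7, where all tested probe sets gave 21.8% and 29.2%. The median difference of the members, later minus earlier, was 0.04 on the log2(signal + 16) scale, against -0.05 over all tested probe sets.

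At an adjusted p under 0.05 in limma, 1 of the 33 members differed between these arrays, where 0.422% of tested probe sets were called. At an unadjusted p under 0.05 in limma, 5 of the 33 members did, and 2916 of the 15165 tested probe sets. The 1 member called after adjustment was 256601_s_at, which the table does not list. Its Col-4 signals were 192, 170, 508 and 372 on replicates 1 to 4, with the later arrays far above the earlier ones, and its Cal-0 signals were 16.2, 19.9, 18.3 and 23.1. The difference was 1.20 with a standard error of 0.19 (limma adjusted p = 0.0472). The call was lost with a pseudocount of 1 (adjusted p = 0.103), with no filter on low signals (adjusted p = 0.101), and without any single array of the 8, with adjusted p from 0.0521 to 0.291. It was kept with a pseudocount of 50, with a mean signal of at least 100 and after quantile normalization.

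A further pair of probe sets had differences of a like size without passing: 266142_at at 1.43 (limma adjusted p = 0.0515) and 246340_s_at at 0.91 (limma adjusted p = 0.0537). Both passed with a pseudocount of 50 and with a mean signal of at least 100, where 4 members were tested, and 266142_at passed after quantile normalization. In the other direction AT1G71020 (-0.52) and AT3G44430 (-0.51) were the lowest. The 3′ to 5′ log2 ratio moved with the same arrays, from 0.955 and 0.927 on Col-4 replicates 1 and 2 to 1.66 and 2.39 on replicates 3 and 4. The leaf gene AT5G01530 was also higher on the later arrays, at 5656 and 5515 and then 6071 and 9487. The root genes overlapped, AT3G09260 at 887 and 566 and then 638 and 329, and AT4G30170 at 86.8 and 52.7 and then 45.9 and 74.8. The part of RNA quality or tissue in these differences was not tested.

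**Figure D4:**
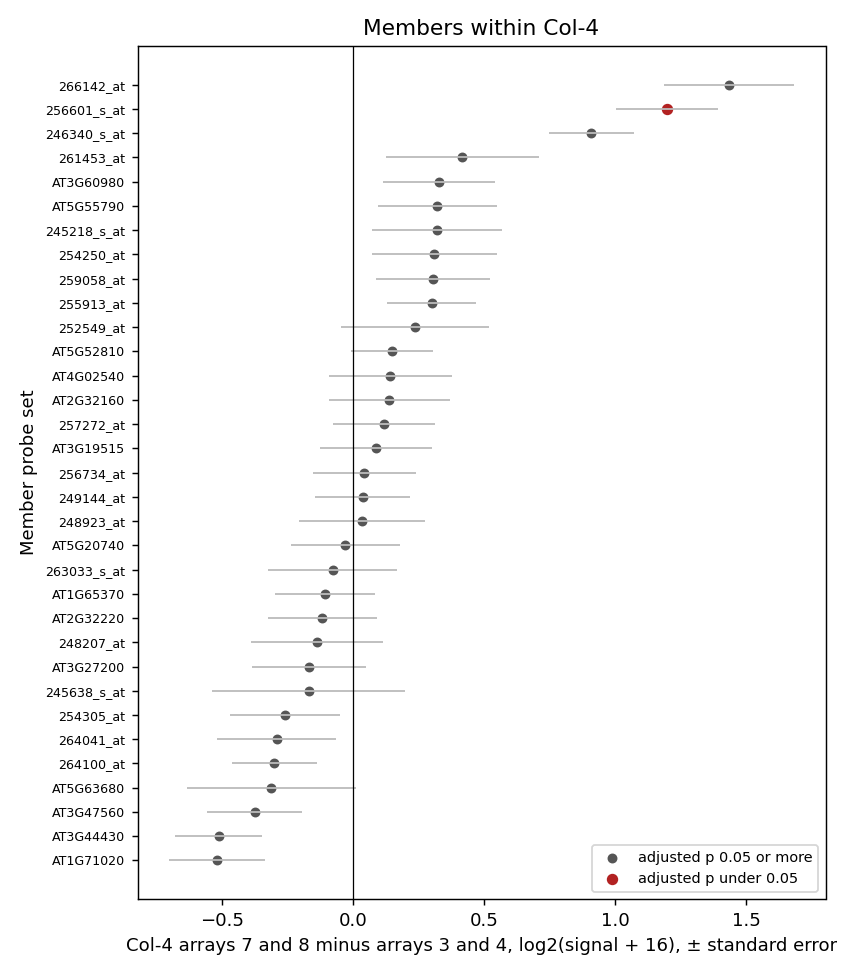
Difference between the later Col-4 arrays (7 and 8) and the earlier ones (3 and 4) for each of the 33 members, on the log2(signal + 16) scale with its standard error from limma (x axis). Most members lie near 0; 266142_at, 256601_s_at and 246340_s_at stand apart at 1.43, 1.20 and 0.91, and 256601_s_at alone has an adjusted p under 0.05.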

How the data were processed

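The authors deposited 1 probe set signal (intensity, linear scale) per gene probe set and array, computed in MAS5, as the submitters' processing notes name it; version and settings were not given in the sources used here, and no detection calls were used. After trimming 2% at either end the mean of every array was about the same, so the values were used without further scaling. The 64 control probe sets were left out.

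The labelled source (Cal-0 or Col-4) set the groups. Probe sets were named from the platform's gene table, updated through RefSeq (TAIR10.1) gene identifiers: 13513 had a single gene, 503 several and 8730 were not listed. From RefSeq only names and gene order were used. Neither table describes gene products, so the planned classes by words in the annotation could not be applied; roles in the text are general background, and the classes were assigned after the members were known.

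The 15165 probe sets averaging 25 or more were fitted in limma 3.58.1 under R 4.3.3 on log2(signal + 16), two-sided, with Benjamini-Hochberg adjustment over all of them and 6 residual degrees of freedom. The array comparison within Col-4 used 1 mean for each accession in arrays 1 to 4 and in arrays 5 to 8 (4 residual degrees of freedom). Its spread was thus shared with the Cal-0 arrays. On simulated data the limma step recovered 83.0% of accession differences of 1 on the log2 scale and 43.5% of such differences within Col-4. Only probe sets with a higher signal than the filter requires were changed there. The simulated spread also left out differences between the array sets, which the accession fit without a block keeps. Recovery in the real data may therefore be lower. Arrays of the 2 accessions with the same replicate number deviated together (correlations of 0.278, 0.376, 0.478 and 0.403). The number was taken to pair them, from the data and not from the labels. Replicates 1 and 2 correlated as well when crossed (0.382 and 0.273), so there the values do not tell the replicate number from the array set. Crossed replicates 3 and 4 correlated less (0.142 and 0.0352). No 2 arrays held the same values.

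All named members are described array by array; flanking genes and unlisted probe sets follow the rules in the text. Alternatives were other pseudocounts, filters and limits, quantile normalization, blocks for replicate and array set, and each array left out. The members, lists and rules were chosen with earlier results of these data known.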

Additional observations from a re-analysis of the deposited data

Results flagged for a closer look

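In 3 of the 66 groups of 4 arrays behind the members, 1 array lay far from the other 3 by Dixon's test at the 95% level, run on the signal scale. Chance alone picks out about 1 group in 20 where signals are not selected. Here the rule limited high Cal-0 and low Col-4 signals in advance, so that rate need not hold. AT5G55790 was at 110.7 in Col-4 replicate 4, where its fellow arrays lay between 69.3 and 74.0. The unlisted probe set 248207_at was at 24.2 in Cal-0 replicate 3, where the others read 6.4 to 8.5. AT1G71020 was at 23.4 in Cal-0 replicate 1, against 35.0 to 36.4.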

How the results depend on the processing

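The set numbered 33 probe sets, 51 with a Cal-0 limit of 50, 16 with a Col-4 limit of 80 and 34 after quantile normalization. Leaving out single arrays gave 35 to 41. By the form of the rule, leaving out an array can add members but cannot remove any. The accession calls over all probe sets numbered 651, 406 with a mean signal of at least 100, 1299 with the replicate block, 1095 with arrays 1 to 4 and 5 to 8 as a block, and 414 to 668 without single arrays, the lowest being 414 without Col-4 replicate 2 and 420 without Cal-0 replicate 1. The comparison within Col-4 was far less stable: 64 calls became 12 and 156 with pseudocounts of 1 and 50, 125 with a mean signal of at least 100, 20 without probe sets of a cross-hybridisation suffix and 0 in limma with no filter (3719 at an unadjusted p under 0.05). Without single arrays it gave 0 to 109, with 0 in limma without Col-4 replicate 1 or 2 (1713 and 2284 at an unadjusted p under 0.05), 1 without Col-4 replicate 4, and 12 and 11 without Cal-0 replicates 1 and 2. A replicate block could not be fitted there, because each replicate number lies wholly in 1 of the array sets. For the named members, ratios of mean signals were recomputed by quantile normalization or without 1 array, which was added after seeing the data. All 126 moved by less than the spread between arrays. Leaving out 1 of 4 arrays can hardly move a mean by more than that, so nothing is read from it. The largest shift was that of AT5G20740, whose ratio ran from 10.9 to 19.6. Signals at the low end carry no background estimate here, which limits every ratio above.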
